A study of Drosophila melanogaster with 9 samples.

Results

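Serum-depleted *Drosophila* S2 cells given vehicle are described here gene by gene: which transcripts were abundant, which were present at a low level, which were silent, and how closely the replicate libraries matched. The members are the 3 vehicle libraries (A, B and C) of 9 in the series, chosen by their label alone, and the 13937 genes counted in each. S2 is a cell line from late *Drosophila* embryos with features of hemocytes, the blood cells of the fly, and it is a male line. All 9 libraries carried the same label for the cells, which went 16 h without serum. The other 6 libraries, 3 with DILP2 and 3 with DILP5, came from cells given 100 nM of one *Drosophila* insulin-like peptide for 1 h, while the vehicle libraries came from cells given the solvent for the same 1 h. Polyadenylated RNA was sequenced. A single line in culture stands for no tissue, and nothing in the sources used here says whether A, B and C were grown as separate cultures, so the spread between them may be technical.

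The library totals ran between 30069999 and 38557706 counts in the DILP libraries and between 28365854 and 35170618 in the vehicle libraries. Levels of 1 gene between libraries are given as CPM, counts per 1000000 counts of the library, and levels of different genes as RPKM, CPM per kilobase of exon. The exonic length came from the BDGP6 annotation and was found for 13700 genes, 98.3% of them. A gene was called present at 1 CPM or more in each of the 3 vehicle libraries, silent under 0.1 CPM in each, and low otherwise. At these depths 0.1 CPM is about 3 counts, since 3 counts equal 0.0853, 0.106 and 0.0876 CPM in libraries A, B and C. A gene at 0 in all 3 libraries is bounded at 0.0307 CPM, the level of 3 counts in their 97791941 counts together, which covers counting error only. Means are given ± SD over the 3 libraries.

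A cell line needs transcripts for its own upkeep and for the signals it can receive, but others can be present too. In flies, insulin-like peptides bind a single insulin receptor, *InR*, which acts through adaptor proteins, PI3-kinase and Akt to hold the transcription factor FOXO out of the nucleus and to activate TOR, the kinase that sets protein synthesis by nutrient supply. Hemocytes are known for laying down basement membrane, engulfing dead cells and bacteria, and making antimicrobial peptides.

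Of the 13937 genes, 7760 were present (55.7%), 2562 were low and 3615 were silent (25.9%), among them 1574 with 0 counts in all 3 libraries. The present genes held 99.9% of all counts. The distribution had its main peak between 10 and 100 CPM. In each library on its own, 7938, 7861 and 7873 genes reached 1 CPM in A, B and C. The nearest genes inside the limit for present were *CG13436*, with 1.48, 1.02 and 1.02 CPM, and *CG13565*, with 1.28, 1.37 and 1.02 CPM. The nearest outside it were *alpha-Est8* and *CG15880*, each with 0.995 CPM in library A.

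**Figure D1:**
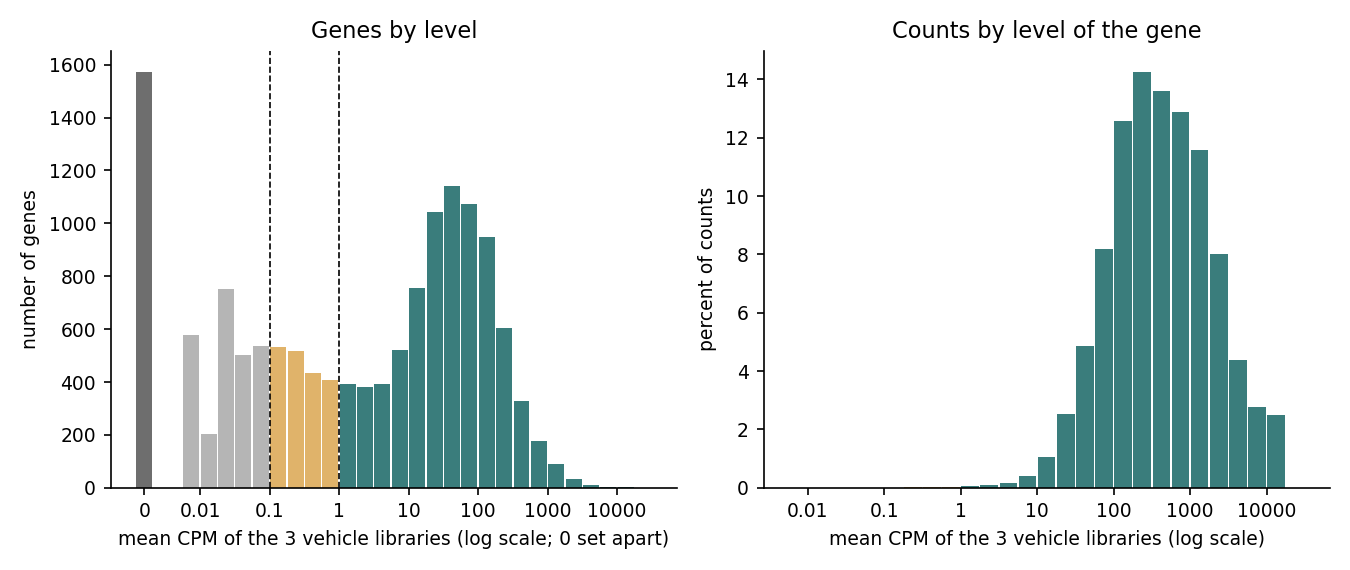
Genes (left) and share of all counts (right) by mean CPM of the 3 vehicle libraries, in equal log10 steps, with dashed lines at 0.1 and 1 CPM. Grey bars lie under 0.1 CPM, ochre bars between the lines and green bars from 1 CPM; the dark bar at the left holds the 1574 genes at 0, and almost all counts come from genes above 10 CPM.

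The counts were spread over many genes. The most abundant gene held 1.40% of the counts, the first 10 held 7.15%, the first 100 held 24.9% and the first 1000 held 65.1%. 484 genes together held 50% of the counts and 3141 held 90%. When levels were weighed per kilobase, 310 genes held 50% of the total.

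Translation, cytoskeleton, protein folding and basement membrane led the ranking. *Ef1alpha48D*, the elongation factor that brings aminoacyl-tRNA to the ribosome, was first by CPM with 14217, 13503 and 14353 CPM and first by RPKM with 5692 ± 185 RPKM. *Msp-300*, a giant nesprin that ties the nucleus to the cytoskeleton, was second by CPM with 10014, 9870.5 and 12924 CPM. *Msp-300* was higher in library C than in A and B, and at an exonic length of 69810 bases it ranked only 438 by RPKM. *LanA* and *LanB1*, laminin chains of the basement membrane, took places 3 and 10 with means of 7609.9 ± 325 and 3782 ± 243 CPM. The polyubiquitin gene *Ubi-p63E*, the elongation factor *Ef2b* and the fatty acid synthase *CG3523* (FASN1) took places 4, 5 and 6, with 7417 ± 117, 6865 ± 304 and 5979.5 ± 455 CPM.

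The remaining genes of the first 25 by CPM included further members of these groups and some others. The cytoplasmic actins *Act5C* and *Act42A* averaged 5493 ± 249 and 3624 ± 97.2 CPM, and the tubulins *alphaTub84B* and *betaTub56D* averaged 3759 ± 53.6 and 2896 ± 40.1 CPM. The chaperones *Hsc70-4*, *Hsp83* and *Hsc70-3* averaged 5116 ± 119, 3645 ± 109 and 2810.0 ± 277 CPM, and *Pdi*, a protein disulfide isomerase, averaged 2826 ± 28.6 CPM. *pAbp*, the poly(A) binding protein, and *AGO2*, the nuclease at the centre of RNA interference, averaged 4289 ± 36.02 and 3507 ± 121 CPM. *Tig*, an integrin ligand of the matrix, *Sap-r*, the saposin precursor of lysosomes, and *Arc1*, which forms capsids that carry RNA, averaged 3056 ± 36.1, 3636 ± 114 and 3602 ± 129.8 CPM. The ribosomal proteins *RpL5*, *RpL4*, *RpS7* and *sta* lay between 2849 and 3402 CPM in the mean.

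Ranked by RPKM the head of the list was ribosomal: 16 of the first 25 and 72 of the first 100 genes were cytosolic ribosomal proteins, against 5 and 35 by CPM, and 11 of the first 25 by CPM stayed in the first 25 by RPKM. *RpLP2*, *RpL41* and *RpL6* followed *Ef1alpha48D* with 3093 ± 72.1, 3048 ± 97.9 and 2836 ± 41.1 RPKM. *RpL23*, *RpS7* and *RpLP1* lay between 2503 and 2619.7 RPKM. The one gene among the first 10 by RPKM that belongs to immunity was *DptB*, an antibacterial diptericin, with 2338, 2739 and 2811 RPKM in A, B and C. *DptB* was lowest in library A, and its ranks were 105 by CPM and 5 by RPKM.

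Of the genes with only an annotation number for a symbol, the highest by CPM after *CG3523* were *CG5210* (Idgf6, a chitinase-like growth factor) with 2107 ± 169 CPM, *CG8184* (HUWE1, a ubiquitin ligase) with 1383 ± 74.2 CPM, *CG15784* with 1121 ± 140.5 CPM and *CG32138* (Frl, a formin) with 1091 ± 8.598 CPM. The highest symbol with the prefix CR was *CR11700*, with 175 ± 8.09 CPM, which BDGP6 lists as protein-coding. Among genes that BDGP6 lists as noncoding or as pseudogenes, named here after their values were seen, *CG32368* (lncRNA:CR32368) was highest with 235, 252 and 217 CPM in A, B and C, and at 572 ± 42.3 RPKM it ranked 122 by RPKM. The pseudogene *CG6900* (CR6900) had 79.9 ± 1.36 CPM and *CG33491* (CR33491) had 35.4, 42.6 and 41.1 CPM. Other pseudogenes on the X lay close to *CG33491*: *CG33498* at 37.2 ± 3.31, *CG33487* at 31.9 ± 3.10 and *CG33496* at 31.9 ± 3.11 CPM. Their counts may share reads, so these may not be separate levels. *asRNA:CR43933* had 28.9 ± 1.04 CPM and *lncRNA:CR43266* 11.3 ± 0.823 CPM, and exons of other genes cover 58.4% and 36.3% of their exonic bases. *lncRNA:CR43337* had 2.01 ± 0.523 CPM, *lncRNA:CR43961* 1.28 ± 0.232 CPM and *CR34031*, which BDGP6 lists as protein-coding, 1.16 ± 0.0770 CPM.

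The insulin pathway was present from receptor to targets, while nearly all of its ligands were low or silent. *InR* had 291, 261 and 272 CPM in A, B and C and rank 765 of 13937. All 6 measured genes of the receptor and adaptor list, 12 of 12 for PI3-kinase, Akt and FOXO, and 23 of 23 for the TOR complex and its regulators were present, against 55.7% of all genes. Among ligands, *Ilp6* alone was present, with 402, 389 and 367 CPM. *Ilp2* and *Ilp5*, which encode the peptides given to the other libraries, had 0 counts in all 3. *Ilp1*, *Ilp3*, *Ilp4* and *Ilp7* had means between 0.00948 and 0.0789 CPM and *CG14059* (Ilp8) had 0.242 CPM.

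*ImpL2*, a secreted protein that binds insulin-like peptides and blocks them, was present at 735, 611 and 605 CPM, highest in library A. BDGP6 places exons of another gene over 61.9% of the exonic bases of *ImpL2*, and the strand of the libraries is not stated, so its counts may include reads of that gene. On the RPKM scale *ImpL2* stood at 244 ± 27.4 and *Ilp6* at 159.8 ± 7.38, both above *InR* at 24.2 ± 1.31. *Sdr*, listed as *CG3837*, another secreted binder of insulin-like peptides, was silent at 0.0407 CPM.

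Levels along the pathway differed widely on the RPKM scale. *S6k*, the kinase that TOR activates, was high at 132 ± 2.53 RPKM and *Thor*, the translation repressor that TOR holds off, matched it at 132 ± 19.9 RPKM. *Thor* spread more between libraries, at 117, 88.9 and 92.6 CPM. *Akt1* stood at 35.5 ± 0.384 RPKM, *chico*, the insulin receptor substrate, at 14.04 ± 0.651 RPKM and *foxo* at 11.99 ± 0.275 RPKM. *melt* was near the present limit at 1.54, 1.30 and 1.49 CPM, which placed it at rank 7650.

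Of 19 receptor tyrosine kinases 11 were present, or 57.9%, near the 55.7% of all genes, and 8 were low. Of the 19, 3 exceeded 100 CPM: *Pvr*, *InR* and *htl*. *Pvr*, the receptor for the PDGF- and VEGF-like factors of the fly, was the highest at 1485, 1527 and 1576 CPM, rank 69. Its ligand *Pvf2* reached 566 ± 29.5 RPKM, above the 229.9 ± 6.83 RPKM of the receptor, and *Pvf3* reached 21.7 ± 0.727 RPKM. *Pvf1* was near the limit at 2.22, 2.26 and 2.16 CPM. Ligands and receptor of this family were thus both present.

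In the EGF family the ligands were present and the receptor was low. *Egfr*, the only EGF receptor of the fly, had 6, 4 and 4 counts in A, B and C, or 0.143 ± 0.0270 CPM. Its ligand *spi* had 277, 275 and 255.4 CPM and its secreted inhibitor *argos* had 368, 351 and 310.4 CPM. *Krn*, *vn* and *grk*, the other ligands, averaged 15.9, 12.3 and 12.1 CPM. The 16 measured genes of the ERK cascade, which carries signals from these receptors, were all present, led by the feedback inhibitor *sty* at 146 ± 7.17 RPKM, with the ERK gene *rl* at 3.12 ± 0.0329 RPKM.

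Of the 2 FGF receptors, *htl* was present at 132, 130.2 and 123 CPM and *btl* stood close to the limit at 1.39, 1.23 and 1.58 CPM. Both receptors had a ligand above 10 CPM, *pyr* for *htl* with 27.3 ± 1.93 CPM and *bnl* for *btl* with 18.2 ± 1.75 CPM. *ths*, the other ligand of *htl*, had 2, 10 and 5 counts. *sev*, *tor*, *Alk*, *Ddr*, *Tie*, *Cad96Ca* and *Drl-2* were low, between 0.127 and 0.458 CPM.

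**Figure D2:**
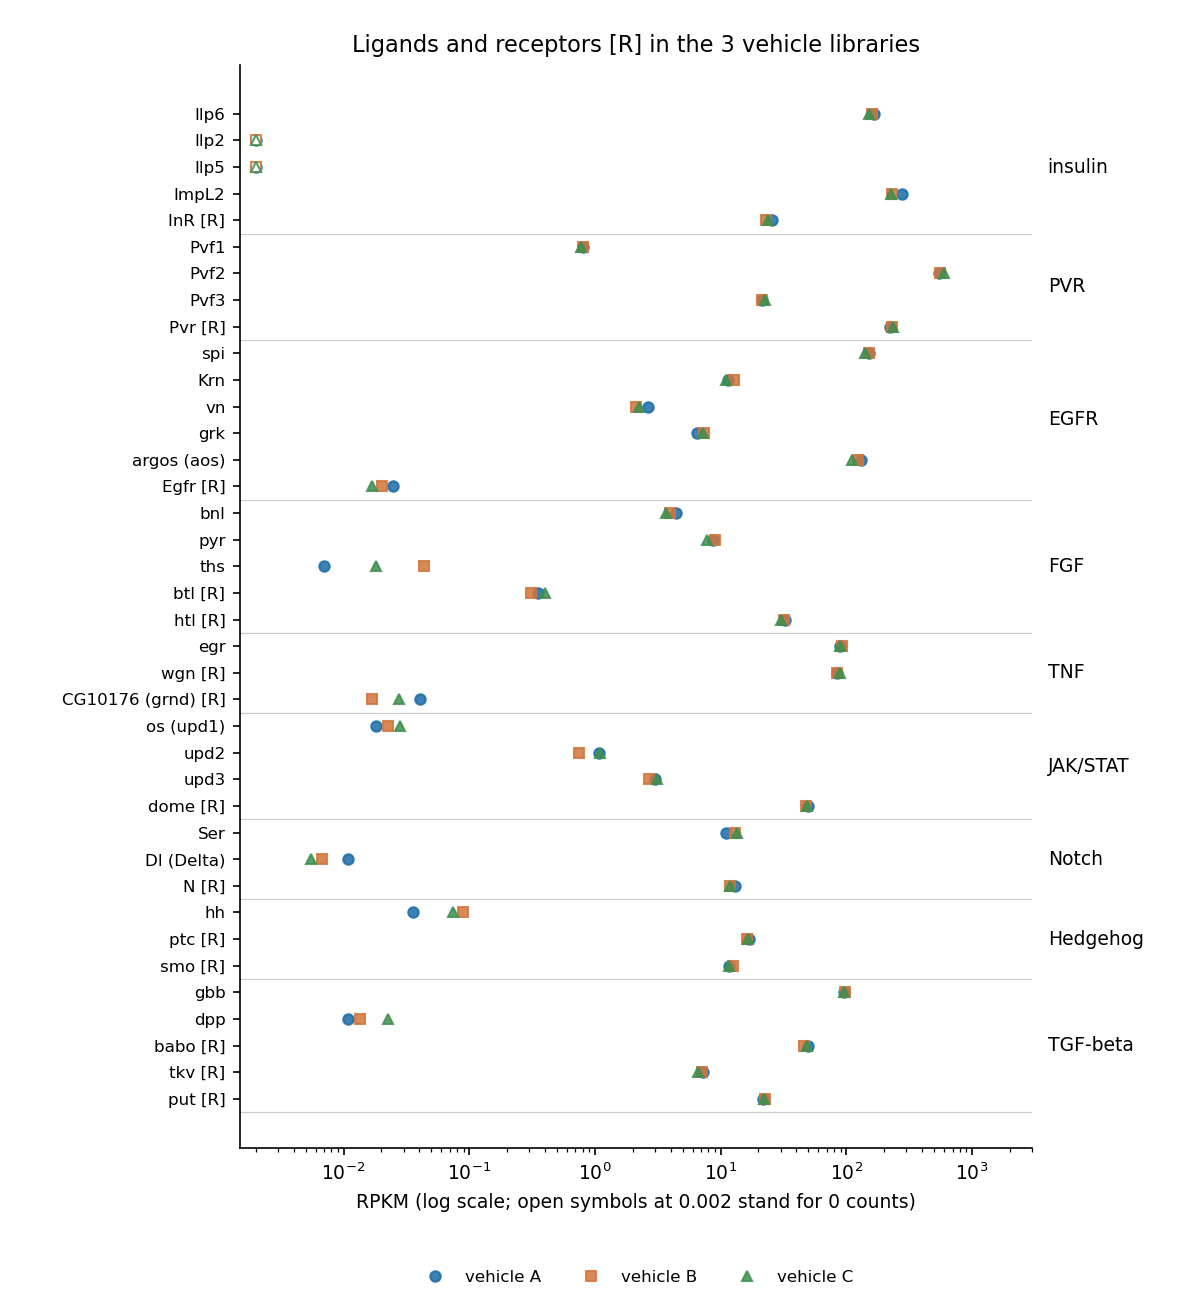
Level of ligands and receptors (marked R) in vehicle libraries A, B and C, 1 symbol each, in RPKM on a log scale, grouped by pathway. *Egfr*, *CG10176* (grnd), *Dl*, *hh*, *dpp* and *os* (upd1) lie under 0.1 RPKM while *InR*, *Pvr*, *htl*, *wgn*, *N*, *dome* and *babo* lie above 10; open symbols are genes with 0 counts.

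The TNF homologue *egr* had 193, 199 and 194 CPM and its receptor *wgn* had 218, 218 and 232 CPM, while the second receptor, *grnd* (listed as *CG10176*), had 3, 1 and 2 counts. The genes that carry the signal to JNK were present, 11 of 12 measured including *egr* and *wgn*. *N* (Notch) had 133, 119.5 and 119.5 CPM and its ligand *Ser* had 64.1, 75.6 and 79.1 CPM, while the ligand *Dl* had 2, 1 and 1 counts. *dome*, the receptor of JAK/STAT signalling, had 243, 233 and 236 CPM and *Stat92E* 429, 426 and 459 CPM, yet of the ligands only *upd3* and *upd2* were present, at 6.50 ± 0.453 and 1.92 ± 0.385 CPM, and *os* (upd1) had 2, 2 and 3 counts.

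In the TGF-beta family, 11 of 16 genes were present (68.75%, against 55.7% of all genes). The type I receptor *babo* averaged 48.3 ± 1.76 RPKM and the ligand *gbb* 96.1 ± 1.30 RPKM, while the ligand *dpp* had 2, 2 and 4 counts. The membrane proteins *ptc* and *smo* of the Hedgehog pathway averaged 91.6 ± 1.99 and 48.1 ± 1.88 CPM with the ligand *hh* at 0.157 ± 0.0650 CPM. *Wnt5* was the highest Wnt gene at 107 ± 3.21 CPM and *wg* was at 0.0662 ± 0.0648 CPM.

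Among nuclear receptors 11 of 21 were present, or 52.4%, near the 55.7% of all genes. *Eip75B* and *ftz-f1* stood at 235 ± 17.9 and 192 ± 12.7 CPM. Both parts of the ecdysone receptor were there, *EcR* at 114, 98.7 and 109 CPM and *usp* at 87.2, 82.4 and 84.8 CPM. Of 8 measured genes for making ecdysone, only *sro* passed the present limit, at 1.68, 1.34 and 1.58 CPM, and *nvd* and *dib* had 0 counts. Among G protein-coupled receptors for hormones and amines 6 of 33 were present, 16 low and 11 silent, led by *mth* at 30.8 ± 1.80 CPM and *ETHR*, the ecdysis triggering hormone receptor, at 19.8 ± 0.647 CPM. The receptor for adipokinetic hormone, listed as *GRHR*, had 2, 1 and 2 counts.

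Odorant, gustatory and ionotropic receptors were mostly silent, 129 of 183, with 14 present. The highest were 3 neighbours in name, *Ir7f*, *Ir7g* and *Ir7e*, at 62.5 ± 5.14, 47.7 ± 2.28 and 37.7 ± 1.17 CPM. *Or19b* and *Or19a* followed at 17.8 ± 1.68 and 13.0 ± 0.834 CPM, and since these are near copies of each other their counts may share reads.

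The S2 label was set against hemocyte markers, and the match was partial. The hemocyte transcription factors *zfh1*, *ush*, *srp* and *pnr* were present, with *srp*, the GATA factor that specifies hemocytes, at 379.8, 381 and 396 CPM, *ush*, its Friend-of-GATA partner, at 466, 465 and 457 CPM and *zfh1* at 1578, 1455 and 1674 CPM. The others were not: *lz*, the Runx factor of crystal cells, had 7, 8 and 4 counts, *gcm*, *gcm2* and *kn* averaged 0.0289, 0.0717 and 0.0881 CPM, and *Hand* had 0 counts. In bulk RNA a low level in every cell and a high level in a few cells cannot be told apart, nor can fewer cells of a kind and less RNA per cell.

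The engulfment genes *crq* and *drpr* were high while several standard plasmatocyte markers were near the floor. Plasmatocytes are the phagocytic class of fly hemocytes. The scavenger receptor *crq* had 414, 394 and 377 CPM and the engulfment receptor *drpr* had 356, 395 and 372 CPM. *Hml*, hemolectin, had only 3.41, 3.17 and 4.58 CPM, *eater* had 2.76, 5.71 and 3.59 CPM, *He* had 7, 7 and 3 counts, *nimC1* had 4, 0 and 1 counts and *nimC2* had 0. Of the 17 plasmatocyte genes measured, 8 were present, 6 low and 3 silent. That is 47.1% present, below the 55.7% of all genes, and the list was not tested against other genes.

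Of 20 genes for matrix and other secreted hemocyte products 17 were present, and together they held 2.25% of all counts. Besides the laminins, *CG5210* (Idgf6) stood at 1163 ± 93.2 RPKM, *BM-40-SPARC*, a collagen-binding matrix protein, at 677 ± 7.78 RPKM, *Tig* at 436 ± 5.15 RPKM, and the collagen IV chains *Cg25C* and *vkg* at 92.5 ± 5.07 and 60.6 ± 4.02 RPKM. *Pxn*, peroxidasin, had 31.9, 35.0 and 43.7 CPM, and *Ndg*, nidogen, was low at 0.494 ± 0.234 CPM.

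Of 4 crystal cell genes only *peb* was present, at 1.48, 2.93 and 2.45 CPM, and the prophenoloxidases *proPO-A1* and *CG8193* (PPO2) averaged 0.0777 and 0.0195 CPM. Of 6 lamellocyte genes 4 were present (66.7%, against 55.7% of all genes). They were led by the integrin *mys* at 326 ± 15.8 RPKM, the filamin *cher* at 134 ± 8.10 RPKM and the kinase *msn* at 100.5 ± 1.07 RPKM, all of which other cells also use. The lamellocyte surface protein *atilla* (listed as *CG6579*) had 0 counts. The lamellocyte enzyme *PPO3*, listed as *CG42640*, was present at 7.51, 7.26 and 8.32 CPM.

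The joint Imd and recognition protein list and most antimicrobial peptide genes were present, while the Toll list lay near the share of all genes. All 17 genes of the list that joins the Imd pathway and the peptidoglycan recognition proteins were present. It holds recognition proteins of both the Imd and the Toll pathway, so it does not set Imd apart from Toll. The highest were the recognition proteins *PGRP-SA* at 506 ± 12.6 RPKM and *PGRP-SD* at 173 ± 7.996 RPKM. The NF-kappaB factor *Rel* stood at 91.1 ± 1.51 RPKM. The Toll pathway had 10 of 16 present, or 62.5%, against 55.7% of all genes. *Tollo* and *Tl* averaged 74.5 ± 0.486 and 18.7 ± 0.371 CPM, and *MstProx* (Toll-3) had 0 counts. 13 of 14 antimicrobial peptide genes were present. After *DptB* came *CecA1* at 489.7 ± 56.8 RPKM and *AttB* at 275 ± 29.7 RPKM. *Def*, defensin, was low at 0.853, 1.02 and 0.671 CPM, and *Dpt*, the diptericin next to *DptB* in the genome, had 4.44, 4.27 and 5.11 CPM.

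**Figure D3:**
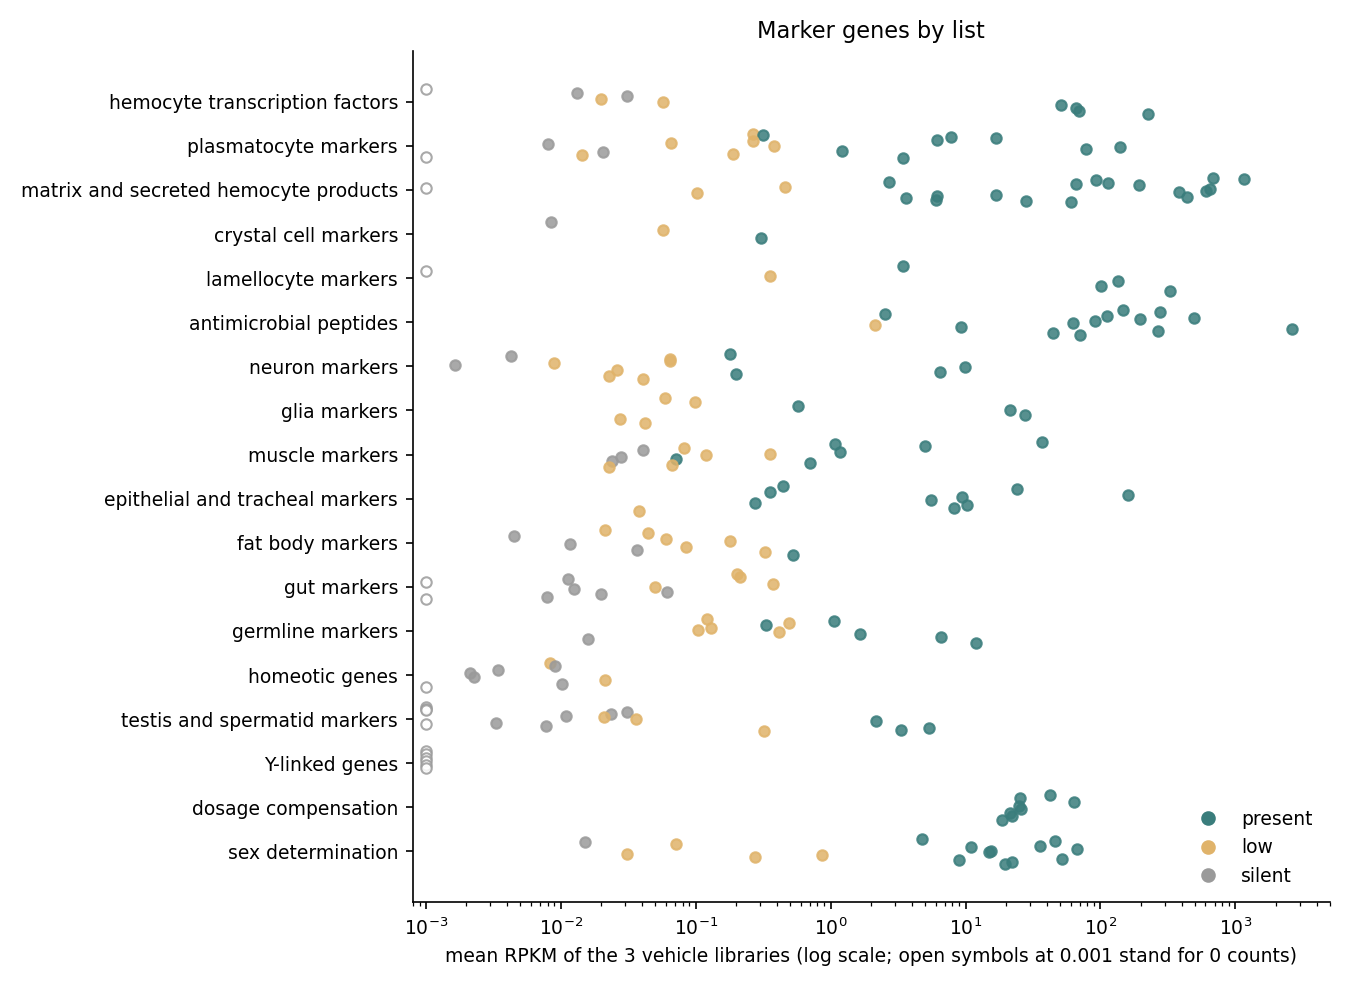
Mean RPKM over the 3 vehicle libraries of each marker with an exonic length, 1 row per list and 1 point per gene, on a log scale. Green points are present genes, ochre low and grey silent, and open symbols are 0 counts; gut, fat body, homeotic and Y-linked lists lie at the left, while matrix, antimicrobial peptide and dosage compensation lists lie at the right.

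Markers of other tissues ranged from 0 genes present to nearly all. The gut list had 0 of 11 genes present and the fat body list 1 of 10, *v(2)k05816* (FASN2) at 4.33 ± 0.616 CPM. No homeotic gene was present, 0 of 8: the highest, *abd-A*, had 7, 1 and 4 counts. Cuticle proteins were silent in 71 of 97 cases and present in 2. In the muscle list 6 of 14 passed (42.9%, against 55.7% of all genes). *Act57B* at 63.3 ± 0.798 CPM and the factor *Mef2* at 46.2 ± 2.72 CPM led them, while the myosin genes *Mhc* and *Mlc1* averaged 0.744 and 0.0576 CPM.

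Of the neuron list 4 of 12 were present (33.3%, against 55.7% of all genes). *brp*, known for the active zone of synapses, had 124, 126 and 145 CPM, and *elav*, an RNA-binding protein used as a marker of neurons, had 69.2, 66.6 and 72.7 CPM. The synaptic genes *Syt1* and *n-syb* had 21, 11 and 14 and 5, 3 and 1 counts. Exons of other genes cover 34.2% of the exonic bases of *elav* and 0% of those of *brp* in BDGP6. In the glia list *moody* and *nrv2* were present at 83.9 ± 3.85 and 97.6 ± 2.41 CPM while *repo*, the factor that defines glia, had 3, 3 and 2 counts. Of 10 epithelial and tracheal genes 9 were present, among them *cora*, *shg* (E-cadherin) and *crb* at 968 ± 25.9, 65.8 ± 4.27 and 76.6 ± 0.751 CPM.

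The 8 measured genes for dosage compensation, which raises transcription of the single X of males, were all present. *msl-2*, the subunit whose translation is blocked in females, had 85.6, 84.8 and 86.3 CPM, with *mle*, *msl-1*, *mof* and *msl-3* at 116 ± 4.98, 108 ± 4.29, 78.3 ± 3.37 and 36.8 ± 1.32 CPM. The RPKM of these named genes lay close together, between 18.7 for *msl-3* and 26.0 for *mof*. Others of the list were higher, *Unr* at 63.3 ± 2.33 and *CG1832* (Clamp) at 42.6 ± 1.42 RPKM, and *JIL-1* stood at 25.5 ± 1.49 RPKM. Values for *roX1* and *roX2*, the noncoding RNAs of the complex, are not analysed here.

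In the sex determination list 11 of 16 were present (68.75%, against 55.7% of all genes). *Sxl*, the switch gene of female development, had 45.3, 42.6 and 42.4 CPM, *tra* 7.34, 8.11 and 7.53 CPM and *tra2* 39.9, 42.1 and 39.4 CPM. These genes are regulated by splicing, so counts per gene do not tell male from female products. *fru* had 194, 193 and 224 CPM, and *dsx*, which directs sexual differentiation of the body, was low with 23, 18 and 23 counts.

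All 8 Y-linked genes of the list, mostly genes for sperm motility such as *kl-2*, *kl-3* and *kl-5*, had 0 counts in all 3 libraries. Of 10 genes that BDGP6 places on the Y, 2 were present, named here after their values were seen: *CG41503* (FDY) with 130.2, 132 and 129.6 CPM and *CG40801* with 9.75, 10.7 and 11.035 CPM. FDY is a copy of the autosomal gene *vig2*, which had 510.0, 521 and 506 CPM, so the 2 may share reads. Testis markers were silent in 9 of 15 cases, and the 3 present were *bol*, *mia* and *sa* at 17.8 ± 0.846, 13.9 ± 0.865 and 3.16 ± 0.580 CPM. Accessory gland and female reproductive products had 0 of 12 present. In the germline list 5 of 12 passed (41.7%, against 55.7% of all genes). Among them were *spn-E* and *zpg* at 30.9 ± 2.40 and 18.4 ± 0.987 CPM, while *vas* had 9, 2 and 5 counts.

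On the X, 1342 of 2140 genes were present (62.7%), against 6257 of 11454 on chromosomes 2 and 3 (54.6%). Fewer X-linked genes were silent, 18.7% against 27.1%. Among present genes the median level on the X was 18.8, 19.3 and 18.9 RPKM in A, B and C, against 20.1, 20.3 and 19.6 RPKM on chromosomes 2 and 3. The ratio was 0.949 ± 0.0141, below 1 in each library at 0.935, 0.951 and 0.963. Its side of 1 depended on the genes taken and on the measure. The ratio was 0.929 ± 0.0110 at 10 CPM or more, but 1.04 ± 0.0211 over all genes above 0. With CPM in place of RPKM, over the same present genes, it was 1.10 ± 0.0204. On chromosome 4, 50 of 78 genes were present with a median of 9.12 ± 1.15 RPKM.

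In glycolysis 13 of 16 genes passed, with *Gapdh1* at 479 ± 4.93 RPKM and *Eno* at 287 ± 1.73 RPKM. The hexokinase *Hex-A* had 217, 207 and 222 CPM and *Hex-C* had 1.68, 1.90 and 1.99 CPM. On the RPKM scale *Hex-A* stood at 52.0, *Hex-C* at 1.24 and the testis forms *Hex-t1* and *Hex-t2* at 0.0234 and 0.0455. All 19 genes of the TCA cycle list were present. So were all 13 protein-coding genes of the mitochondrial genome, led by *mt:CoI* at 679, 695 and 506 CPM, which was lowest in library C.

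The 19 genes of lipid synthesis and storage, 15 of them present, held 1.254% of all counts. *CG3523* (FASN1) stood at 684 ± 52.0 RPKM, its regulator *HLH106* (SREBP) at 466 ± 6.84 RPKM and *ACC*, the enzyme that commits acetyl-CoA to fatty acids, at 141 ± 7.22 RPKM. The paralogues *v(2)k05816* (FASN2) and *CG17374* (FASN3) had only 0.531 ± 0.0755 and 0.0168 ± 0.00823 RPKM. Of the lipid droplet proteins, *Lsd-1* had 18.1, 16.0 and 19.5 CPM and *Lsd-2* had 1, 0 and 0 counts. The lipase *bmm* averaged 118 ± 7.32 CPM.

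In nutrient transport the citrate transporter *Indy* led with 477, 525 and 510.5 CPM, followed by the amino acid transporters *path*, *JhI-21* and *mnd* at 166 ± 7.39, 115.3 ± 5.67 and 77.7 ± 5.91 CPM. *slif* and the glucose transporter *Glut1* were low, at 0.626, 0.529 and 0.234 and 0.398, 0.282 and 0.0292 CPM, each lowest in library C. Glycogen enzymes were present, *GlyP* at 420.4 ± 27.2 CPM, and trehalase, *Treh*, at 89.3 ± 5.46 CPM, while *Tps1*, which makes trehalose, was low at 0.654 ± 0.0967 CPM. Metallothionein *MtnA* had 92.0, 81.7 and 75.2 CPM, whereas *MtnB* had 1, 0 and 0 counts and *MtnC* had 0.

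*AGO2* and *Dcr-2*, for RNA interference, stood at 846 ± 29.2 and 31.3 ± 1.33 RPKM, and *AGO1* and *Dcr-1*, for microRNAs, at 48.8 ± 1.77 and 17.2 ± 0.468 RPKM. Of the Piwi genes *piwi* had 5.57, 5.08 and 4.58 CPM, *aub* 3.19 ± 0.385 CPM and *AGO3* 0.389 ± 0.147 CPM.

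For growth and division, all 21 cell cycle genes were present, with the mitotic phosphatase *stg* at 587 ± 28.4 CPM and *CycE* at 93.4 ± 1.62 CPM. The death inhibitor *th* (Diap1) averaged 80.0 ± 1.86 RPKM, against 2.34 ± 0.628 RPKM for the death inducer *rpr* and 0.310 ± 0.0253 RPKM for *W* (hid), and *grim* had 0, 1 and 4 counts. Ribosomal proteins were 85 of 89 present and held 10.7% of all counts. Of the paired genes for 1 ribosomal protein, *RpS5a* had 1154 ± 38.4 RPKM and *RpS5b* 2.11 ± 0.364 RPKM. *RpL38* was lower by CPM than every other present member except *RpS5b* and *RpS19b*, at 25.8, 28.5 and 17.0 CPM and lowest in library C, and *RpL10Aa* had 0 counts. Proteasome subunits were 34 of 39 present, the other 5 being related copies such as *Prosalpha6T* at 0.0522 ± 0.0211 CPM.

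Some values stand for several genes at once. Of 8541 genes with at least 10 counts in each vehicle library, 148 had the same count as another gene in all 9 libraries, in 66 sets, so that their values are not separate measurements. They included 20 copies of *His2A*, listed between 22.9 and 24.8 CPM each. All 116 histone genes counted as present, but most are copies in a tandem array with nearly the same counts, and most histone transcripts carry no poly(A) tail. The polyadenylated variant *His2Av* had a mean of 319.9 CPM. The 6 *Hsp70* copies averaged between 47.2 and 52.9 CPM and, being near-identical, may share reads too. Outside the histones 128 genes were affected, such as *fab1* and *CG33981*, each listed at 158 CPM, and together they held 0.408% of the counts.

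Present and silent genes also differed in structure and place. CPM is not divided by length, so a longer gene reaches the present limit more easily, and the lengths of the classes are given as a description. The median exonic length was 2105 bases in present genes, 1779 in low and 1082 in silent ones. A single exonic block made up 11.1% of present genes and 27.3% of silent genes. In BDGP6 gene order, the neighbours of a present gene were present in 76.3% and silent in 8.98% of cases, while the neighbours of a silent gene were silent in 62.5% and present in 19.6%. Neighbours with overlapping exons were kept, so reads counted for both genes can add to the agreement, by an amount that was not measured. The silent genes formed 198 runs of at least 5 in a row with 1626 genes in all. The longest was 42 genes on 3L, starting at *CG13055*. Others held known gene families, such as 23 on 3R from *Osi1* to *Osi18*, 19 on 3L around the *Eig71E* genes, which ecdysone induces in salivary glands, and 17 on 3L with the larval cuticle genes from *Lcp65Ag2* to *Cpr65Az*.

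The 3 libraries matched closely. Over the 7760 present genes the Pearson correlation of log2 CPM across genes was 0.997 in each of the 3 pairs. The coefficient of variation between libraries had a median of 4.01% over the 6215 genes at a mean of 10 CPM or more (quartiles 2.503% and 6.17%), against 2.23% from counting alone. The median was 11.4% for genes between 1 and 10 CPM, 4.54% between 10 and 100 CPM, 3.38% between 100 and 1000 CPM and 3.04% above 1000 CPM, while the counting part in these steps was 9.37%, 2.95%, 1.27% and 0.451%. The spread above counting was thus largest relative to it among abundant genes. edgeR's common dispersion over 8552 genes gave a biological coefficient of variation of 5.35%.

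A few genes varied far more than this. 48 of the 6215 genes had a coefficient over 20%, and library A was the one farthest from the median in 30 of them, 28 times as the highest. Of those 30 genes 21 are histone copies, many with the same counts, which leaves 9 others. *CG6220* had the largest, 76.7%, with 229, 59.3 and 76.6 CPM in A, B and C. *ImpL3*, the lactate dehydrogenase Ldh, followed with 136, 55.1 and 79.9 CPM and a coefficient of 45.9%. *CG4726* (MFS3) had 141, 68.3 and 107 CPM and *CG9521* 121, 67.5 and 87.8 CPM. In these 4 genes library A was the highest and library B the lowest.

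In another set library C was the highest. *out* had 15.9, 19.4 and 29.1 CPM, *Obp99a*, an odorant binding protein, 49.6, 56.9 and 86.8 CPM, and *PGRP-SB1* 12.5, 17.3 and 22.97 CPM. The peroxiredoxin genes *Prx2540-1* and *Prx2540-2* had 41.9, 30.7 and 56.6 and 40.2, 29.6 and 54.4 CPM, and *CG12896* had 32.6, 24.1 and 45.4 CPM, all highest in C and lowest in B. For 10 of the 48 genes library C was farthest from the median, and in 6 of those 10 the library lettered C was farthest in the same direction in the DILP2 and in the DILP5 group too. For the 30 genes where A was farthest, 21 of them histone copies that are mostly not separate values, that happened in 0. It also happened in 0 of the 8 genes where B was farthest. *Obp99a*, for example, had 53.3, 50.9 and 92.5 CPM in DILP2 libraries A, B and C and 53.0, 54.5 and 94.8 CPM in DILP5 libraries, against 49.6, 56.9 and 86.8 CPM in vehicle libraries.

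At the other end, *scny*, a ubiquitin protease, had 296.21, 296.20 and 296.51 CPM, a coefficient of 0.0585%. *Trxr-1*, thioredoxin reductase, *snama*, *CG8944* and *sec24* lay between 0.0615% and 0.138%. These are below the counting error of their counts and are the extremes of many genes.

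Part of the spread followed gene length. The deviation of a library was taken as the log2 ratio of its CPM to the mean CPM of the other vehicle libraries. In library B the median deviation was 0.09 in the shortest of 5 equal classes of 6143 genes (162 to 1250 bases). In the longest class (4301 to 71820 bases) it was −0.03, while in library C the same classes stood at −0.08 and 0.03. Spearman's rho between length and deviation, across genes within a library, was 0.0533 in A, −0.429 in B and 0.381 in C. Genes are not independent replicates and no test was made.

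With the peptides, 7624 genes were at 1 CPM or more in all 6 DILP libraries. Of the 7760 genes present in vehicle libraries, 7605 (98.0%) stayed at 1 CPM or more in all 6 DILP libraries and 4 were under 1 CPM in all 6. Of the 2562 low genes, 19 were at 1 CPM or more in all 6. Of the 3615 silent genes, 3210 were under 0.1 CPM in all 6 DILP libraries and 405 were not. Of the silent genes 0 reached 1 CPM in any DILP library, and the highest value was 0.366 CPM, for *soti* in a DILP2 library with 11 counts.

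Levels did move. In edgeR's quasi-likelihood test of the mean of both peptides over vehicle, 1551 of 8981 genes passed an adjusted p of 0.05 (17.3%), 720 higher and 831 lower with the peptides. With library totals as the only scaling the split was 453 higher and 1176 lower, with the median over all genes at −0.04 on the log2 scale in place of 0.00, so the count in each direction depends on the scaling. Without vehicle library A 881 genes passed, and without vehicle library C 812. Most changes were small: 33 of the 1551 were 2-fold or more. Of the 899 genes tested that belong to the lists used here, 160 passed (17.8%), close to the 17.3% of all genes.

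The members farthest above their vehicle level included regulators of the insulin and TOR pathways. *chrb*, which restrains TOR, had 189, 176 and 179 CPM in DILP2 and 189, 181 and 184 CPM in DILP5 libraries A, B and C, against 72.0, 72.8 and 72.2 CPM in vehicle libraries (CPM on TMM-normalized library sizes, here and for the genes that follow). Its log2 change was 1.34 (0.04 SE, adjusted p = 2.00e-09 in edgeR), with no overlap between the groups. *ImpL2* had 1699.5, 1569 and 1352 CPM in DILP2 and 1886, 1681 and 1309 CPM in DILP5 libraries, against 721, 594 and 604 CPM in vehicle libraries, a log2 change of 1.31. *scyl*, the partner of *chrb*, rose by 1.14 on the log2 scale, *Pepck*, for gluconeogenesis, by 1.04 and *Hsp70Ab* by 0.95, all past the threshold. Exons of another gene cover all exonic bases of *Pepck* in BDGP6.

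Farthest below was *vri*, a clock repressor, with 4.25, 4.63 and 4.49 CPM in DILP2 and 4.48, 4.23 and 4.59 CPM in DILP5 libraries, against 11.5, 10.8 and 11.9 CPM in vehicle libraries, a log2 change of −1.36 (adjusted p = 6.71e-07 in edgeR). *L* (PRAS40), a TOR inhibitor, changed by −1.24 and *CG13624* (REPTOR), a transcription factor that TOR holds off, by −0.85 on the log2 scale. *Cpr49Ac* and *Gr39a* changed by −1.04 and −0.87, and both had means under 2 CPM in vehicle libraries. Their calls were lost without single vehicle libraries, that of *Cpr49Ac* without B (adjusted p = 0.0585 in edgeR) or C (0.122) and that of *Gr39a* without A (0.0692) or C (0.107). *InR* itself had 203, 198 and 187 CPM in DILP2 and 176, 190.1 and 197 CPM in DILP5 libraries, against 286, 254 and 272 CPM in vehicle libraries, a log2 change of −0.50 (adjusted p = 4.64e-05 in edgeR). In each of these 11 genes all 6 DILP libraries lay on one side of all 3 vehicle libraries, as they did in 22.1% of all genes tested. 10 of the 11 were chosen as the largest changes, so nothing is read from this count.

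**Figure D4:**
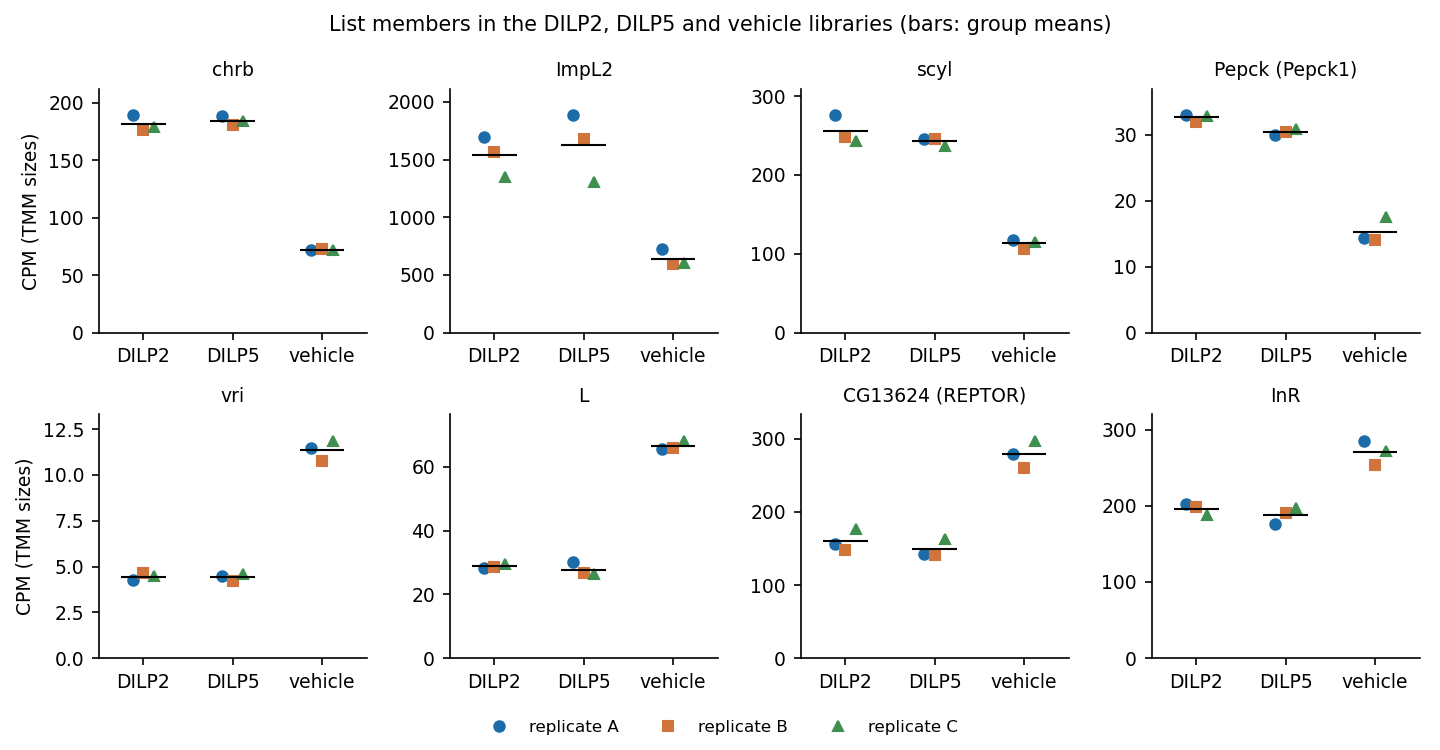
CPM on TMM-normalized library sizes in DILP2, DILP5 and vehicle libraries for 8 list members, with 1 symbol per library, a bar at each group mean and axes from 0. *chrb*, *ImpL2*, *scyl* and *Pepck* lie higher with either peptide than with vehicle, and *vri*, *L*, *CG13624* (REPTOR) and *InR* lie lower, without overlap.

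The counts per list stand beside 1551 of all 8981 genes tested (17.3%), 720 higher and 831 lower. The lists named here are some of 61, and none was tested as a set. Of the 6 receptor and adaptor genes of the insulin pathway 4 passed, *InR*, *dos*, *chico* and *Lnk*, all lower. Autophagy genes had 6 of 12 lower and 0 higher, with a median log2 change of −0.15 over the list, and 3 of the 4 hemocyte factors tested, *srp*, *ush* and *zfh1*, were lower, though for *zfh1* the groups overlapped. Heat shock genes had 13 of 18 higher and 0 lower, with a median of 0.42, and the 6 *Hsp70* copies that may share reads are among the 13. These directions held with DESeq2, with its size factors and with library totals. Ribosomal proteins had 22 of 86 higher and 0 lower, but 47 with DESeq2 and 5 with library totals. Of 116 histone genes 0 passed in edgeR and 0 in DESeq2, with 2 at an unadjusted p under 0.05, and of the 8 dosage compensation genes 0 passed in both, with 1 at an unadjusted p under 0.05.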

How the data were processed

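The authors deposited raw counts of reads per gene for 9 libraries: per the study's methods, 50-base single-end reads of poly(A) RNA were mapped with Tophat and Bowtie to dm3 and counted with easyRNASeq. The annotation release and the strand setting are not given in the sources used here, and the submitters' processing notes also name edgeR. Reads counted for several genes or overlapping genes can raise a value, and 0 columns lacked a sample.

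CPM used each library's total. Exonic lengths for RPKM came from the BDGP6 annotation, a later build than dm3, through 13389 gene IDs and 311 CG numbers of 13937. No coordinates were carried between builds. Counts of 28365854 to 35170618 per vehicle library put 3 counts at 0.0853 to 0.106 CPM. Limits at 0 counts cover counting error only.

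DILP2 and DILP5 libraries were set against vehicle in edgeR (quasi-likelihood F test, TMM, filterByExpr, Benjamini-Hochberg over all 8981 genes, threshold 0.05), with all 9 libraries in 1 fit and the peptides averaged. The edgeR test and the estimate of the biological coefficient of variation were tried on simulated counts. Alternatives were DESeq2 and its size factors, library totals alone, other filters, a replicate block, each library left out, and RPKM in place of CPM. Tools were R 4.3.3, edgeR 4.0.16, limma 3.58.1, DESeq2 1.42.0, Python 3.11.15, pandas 2.3.3, numpy 2.4.6 and matplotlib 3.10.9.

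Genes named were the 25 highest by CPM and 10 by RPKM, members of 61 gene lists, the 10 most and 5 least variable genes from 10 CPM, the 5 highest CG and 5 highest CR symbols, and the 5 largest rises and 5 largest falls among list members with the peptides. Some genes that this rule names are not reported here. The members and the lists were chosen with earlier results of these data known.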

Additional observations from a re-analysis of the deposited data

How the results depend on the processing

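By RPKM 310 genes in place of 484 held 50% of the total. The ratio of X to autosomal levels was 0.949 for present genes and 0.929 for genes at 10 CPM or more, but 1.04 for all genes above 0 and 1.10 with CPM in place of RPKM. The count of genes past the threshold for both peptides over vehicle, 1551, lay between 812 and 1689 when each library was left out in turn, with 881 without vehicle library A and 812 without vehicle library C. With the replicate letter as a block (replicate block) it was 2402. By the correlation of deviations from the group means the letters did not pair the libraries in every case: the 3 pairs lettered C lay between 0.29 and 0.35 and the 3 lettered A between 0.14 and 0.16, but the 3 lettered B between −0.04 and 0.10. Pairs with different letters were over 0.1 in 3 of 18, and vehicle library A correlated best with DILP5 library B, at 0.19. Library totals alone gave 1629 genes, DESeq2 1597 and edgeR with DESeq2's size factors 1548. For the 10 list members with the largest rises and falls, 144 of 148 values kept the direction and passed the threshold, and 0 reversed. The other 4 missed it: *Cpr49Ac* without vehicle library B (adjusted p = 0.0585 in edgeR) and C (0.122), and *Gr39a* without vehicle library A (0.0692) and C (0.107). DESeq2 gave no adjusted p for *Cpr49Ac*. Depth limits statements on genes under about 3 counts per library.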
